A study of Homo sapiens with 9 samples.

Results

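The listed imprinted genes were IGF2, H19, MEG3, PEG10, PEG3, MEST, GRB10, SNRPN, NNAT and PLAGL1, which are 10 of the 23619 genes in the expression files. They were chosen by name, and the question was whether their RNA levels changed in cells that lack the disco-interacting protein gene DIP2C, as a test for loss of imprinting control. Of the 10, 7 were high enough to be tested, and none of these 7 passed the test in any comparison when all 9 samples were used. In those comparisons 0% to 0.18% of all genes tested passed, so 0 of 7 is not a result about the members. MEST was lower than in parental cells when 1 clone, H9-A4, was left out, and the other 6 tested members did not pass the test without it either. Without H9-A4, 8.95% of all genes tested passed for all clones and 7.95% for DIP2C+/-. H9-A4 was singled out from these same data, in which fewer of its genes were far from parental RKO. Leaving out such a clone favours calls against parental RKO, so the tests without it are given as a description.

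RKO is a human colorectal cancer cell line, and RNA sequencing was done on 2 samples of parental RKO, 2 DIP2C-/- clones (E3 and C10) and 5 DIP2C+/- clones (F6-A7, A9-A12, G1-A5, A6-C9 and H9-A4). The study describes fewer DIP2C+/- clones than the 5 sampled here, and the labels do not say how they relate. Whether some of the 5 share an origin is therefore not known. All cells were untreated and were grown for 48 h, and each clone gave 1 library. The clones carry a deletion inside 1 exon of DIP2C made with a viral targeting vector, and the antibiotic selection cassette was afterwards removed with Cre recombinase. Per the methods of the study, the DIP2C-/- clones were made by a further round of targeting in a DIP2C+/- clone. Each clone grew from a single cell, and a clone that went through targeting and selection but kept both DIP2C alleles was not among the samples. Effects of DIP2C loss and of cloning and selection therefore cannot be told apart, and the p-values treat the clones as independent samples.

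Imprinted genes are transcribed from only the paternal or only the maternal chromosome. The choice is set by DNA methylation laid down at imprinting control regions in the germ line and is copied at each cell division by the maintenance methyltransferase DNMT1 with its partner UHRF1, while the zinc finger protein ZFP57 and the corepressor TRIM28 protect it from erasure in the early embryo. Loss of imprinting is common in colorectal tumours, in which IGF2 can become active on both chromosomes. Total RNA per gene sums both chromosomes, so the allele of origin was not measured here, and a changed total is only an indirect sign of a changed imprint.

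DIP2C itself was measured at 60.9 and 70.8 CPM (counts per 1000000 counts of the library, after TMM scaling) in the parental samples, at 17.4 and 22.8 CPM in E3 and C10 and at 33.6 to 56.2 CPM in the DIP2C+/- clones. Clone H9-A4 held the 56.2 CPM, and it stood apart from the other DIP2C+/- clones in other respects. It had 188 genes past 4-fold from the parental mean, against 377 to 518 in the other clones. With all 9 samples DIP2C itself did not pass the edgeR test for DIP2C-/-, DIP2C+/- or all clones (adjusted p = 0.0998, 0.386 and 0.132). Without H9-A4 it passed in each (edgeR adjusted p = 0.00103, 0.0285 and 0.00216). A gene that did not pass with all 9 samples may therefore still have changed. The totals of the estimated counts were 14772593 to 21486483 per sample, and 3 counts, taken as the detection floor, came to 0.14 to 0.203 CPM. Of 10 epithelial and intestinal markers, KRT8, KRT18 and CDX2 reached 10 CPM, and the other 7, EPCAM and VIL1 among them, stayed below 5 CPM in every sample. The summed epithelial level was 248 to 306 CPM in parental, 151 to 184 CPM in DIP2C-/- and 182 to 331 CPM in DIP2C+/- samples, and its part in the results was not tested. All 8 markers of leukocytes, endothelium, fibroblasts and hepatocytes were at or below 2.87 CPM.

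Reference sequences of 3 members are shown here because some of their promoter windows carry the 6-base word that ZFP57 recognises when it is methylated. Of the 10 members, 6 had entries among the RefSeq promoter windows (GRCh38.p14), each running from 250 bases before to 50 bases after a transcription start. The word TGCCGC, searched on both strands (GCGGCA on the other strand), was in 11 of the 23 windows of these 6 genes and in 16.7% of all 35116 windows. Windows of neighbouring starts overlap, so the 3 MEG3 windows hold the same match and some MEST windows share theirs, and the 11 windows hold fewer separate sites. Matches may overlap, since the word followed by its reverse complement can share bases. By gene, the word was in 4 of 5 windows of MEST, 2 of 4 of SNRPN and 1 of 5 of PLAGL1. It was also in 1 of 5 windows of GRB10 and 3 of 3 of MEG3, which are not shown. H19 had no match in its single window. The 3 windows are given on the strand of the gene, 5′ to 3′, with the matches in capitals.
MEST, chr7:130491835-130492134, plus strand: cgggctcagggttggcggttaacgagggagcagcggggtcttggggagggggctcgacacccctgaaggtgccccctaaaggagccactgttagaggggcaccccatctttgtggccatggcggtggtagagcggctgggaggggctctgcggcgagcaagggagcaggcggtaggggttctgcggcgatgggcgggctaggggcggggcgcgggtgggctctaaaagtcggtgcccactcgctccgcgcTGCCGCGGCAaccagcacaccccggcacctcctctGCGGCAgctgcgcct
PLAGL1, chr6:144008210-144008509, minus strand: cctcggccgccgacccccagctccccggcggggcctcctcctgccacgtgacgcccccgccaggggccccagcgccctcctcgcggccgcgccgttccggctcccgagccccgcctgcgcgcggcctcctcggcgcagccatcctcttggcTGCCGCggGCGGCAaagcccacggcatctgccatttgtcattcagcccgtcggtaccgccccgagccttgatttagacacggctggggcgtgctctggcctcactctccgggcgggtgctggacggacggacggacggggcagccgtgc
SNRPN, chr15:24954737-24955036, plus strand: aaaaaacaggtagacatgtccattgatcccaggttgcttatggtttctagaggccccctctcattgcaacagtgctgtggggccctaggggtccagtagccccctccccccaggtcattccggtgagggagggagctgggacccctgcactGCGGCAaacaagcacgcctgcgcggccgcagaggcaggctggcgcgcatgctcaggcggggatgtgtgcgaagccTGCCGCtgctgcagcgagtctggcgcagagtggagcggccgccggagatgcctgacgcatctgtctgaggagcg
The MEST window held 3 matches, beginning at positions 1, 5 and 36 counted from the first transcribed base, and the first of them overlaps the next. In the PLAGL1 window matches began at positions -99 and -91, and in the SNRPN window at positions -99 and -24. These windows held 25, 39 and 18 CpG dinucleotides, against a median of 14 over all windows. They were chosen for a word that itself holds a CpG, so this does not compare like windows. Other windows of PLAGL1 and SNRPN held as few as 2. A match is a run of letters and not a measured binding site, and no methylation was analysed here.

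The members fell into an expressed and a nearly silent set. Only MEST, GRB10 and PLAGL1 were at 10 CPM or more in every sample, while the other 7 stayed below 3 CPM in every sample, with 2.62 CPM as their highest value. Per kilobase of the canonical transcript in the GENCODE annotation, mean levels over the 9 samples were 25.7 CPM for MEST, 12.7 CPM for GRB10 and 6.61 CPM for PLAGL1, and the ranges over samples of these 3 genes did not overlap. H19, MEG3 and NNAT followed at 1.61, 1.58 and 0.974 CPM per kilobase, with ranges that overlapped each other. SNRPN, PEG10, IGF2 and PEG3 came last, at 0.131, 0.124, 0.0842 and 0.0435 CPM per kilobase, again with overlapping ranges. Which isoform the cells transcribed was not measured, so these lengths are approximate. Filtering on low counts left 7 members in the test and removed PEG10, PEG3 and SNRPN.

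**Figure D1:**
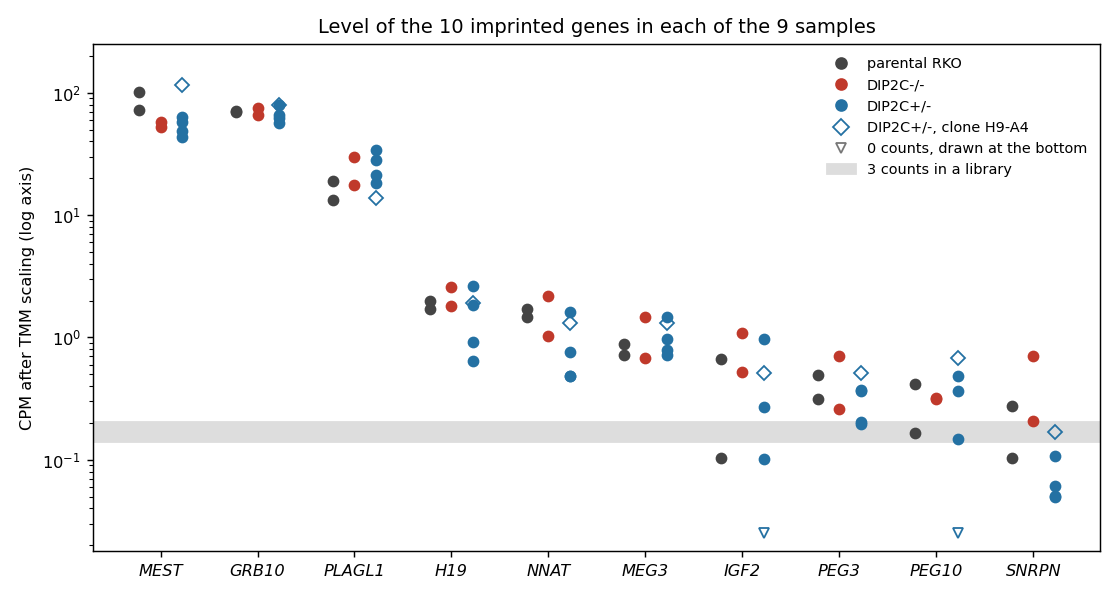
Level of the 10 members (horizontal axis) in CPM after TMM scaling (vertical log axis), 1 point per sample, in grey for parental RKO, red for DIP2C-/- and blue for DIP2C+/-, with clone H9-A4 as an open diamond. MEST, GRB10 and PLAGL1 lie at 10 CPM or more in every sample and the other 7 members below 3 CPM, several of them near the grey band that marks 3 counts, and open triangles at the bottom mark samples with 0 counts.

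MEST, mesoderm specific transcript, encodes a hydrolase-fold protein that is transcribed from the paternal chromosome and promotes embryonic growth. It lies on the plus strand at chr7:130126012-130146306 (hg19) and overlaps the antisense gene MESTIT1 and the end of COPG2. MEST stood at 102 and 72.7 CPM in the parental samples and at 57.1 and 52.3 CPM in E3 and C10. The DIP2C+/- clones had 48.2 CPM in F6-A7, 62.8 CPM in A9-A12, 58.1 CPM in G1-A5, 43.5 CPM in A6-C9 and 116 CPM in H9-A4. Thus 6 of the 7 clones were below both parental samples and H9-A4 was above both, while the parental samples themselves were far apart.

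With all 9 samples the fitted log2 change of MEST was -0.49 for all knockout clones against parental RKO (SE 0.31, edgeR quasi-likelihood test, Benjamini-Hochberg adjusted p = 0.512). It was -0.68 for DIP2C-/- (adjusted p = 0.499) and -0.41 for DIP2C+/- (adjusted p = 0.652), so MEST did not pass the test in any of these. Without H9-A4 it fell, by 0.70 on the log2 scale for all clones (SE 0.17, adjusted p = 0.0249) and by 0.72 for DIP2C+/- (SE 0.18, adjusted p = 0.0342), by the same test. The size also rested on the parental samples, since without parental 1 the changes were -0.23 for all clones and -0.15 for DIP2C+/-, and without parental 2 they were -0.71 and -0.63, none of them called. For DIP2C-/- the change without H9-A4 was -0.68 with an adjusted p of 0.109. Without H9-A4 the clones averaged 53.7 ± 7.08 CPM (SD, n = 6) against 87.5 ± 20.8 CPM (SD, n = 2) in parental cells, a ratio of 0.613. Among all genes tested, 8.95% were called in that all-clone comparison and 7.95% in the DIP2C+/- comparison without H9-A4, so 1 of 7 members called is read against those shares. H9-A4 was left out on the basis of these same data, and the p-values without it do not allow for that choice.

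The neighbours of MEST that passed the filter did not pass the test. COPG2, which encodes a coat protein of transport vesicles, ranged from 16.2 to 26.6 CPM over the 9 samples, and CEP41, a centrosomal protein, from 26.4 to 41.3 CPM. The carboxypeptidase gene CPA4 ranged from 0.339 to 1.33 CPM. MESTIT1 was at 0.825 to 1.62 CPM, with 0.825 and 1.62 CPM being the parental samples. Whether the library kit kept the strand is not given in the sources used here, so reads of MEST and MESTIT1 cannot be told apart where they overlap.

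PLAGL1, also called ZAC1, encodes a zinc finger transcription factor that regulates other imprinted genes and is transcribed from the paternal chromosome. It lies on the minus strand at chr6:144261437-144385736 (hg19), with the imprinted noncoding gene HYMAI inside it. PLAGL1 stood at 13.3 and 18.9 CPM in the parental samples and at 17.5 and 29.7 CPM in E3 and C10. The DIP2C+/- clones had 28 CPM in F6-A7, 13.8 CPM in H9-A4, 21.3 CPM in A9-A12, 18.3 CPM in G1-A5 and 33.8 CPM in A6-C9. Of the 7 clones, 4 were above both parental samples and 3 lay between them, so the groups overlapped.

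The fitted log2 change of PLAGL1 was 0.53 for all clones (SE 0.34, edgeR adjusted p = 0.517), 0.55 for DIP2C-/- (adjusted p = 0.596) and 0.52 for DIP2C+/- (adjusted p = 0.587). Leaving out H9-A4 gave 0.62 for all clones, with a 95% confidence interval of 0.01 to 1.24 and an adjusted p of 0.212. PLAGL1 therefore did not pass the test in either fit. HYMAI went from 0.375 to 1.43 CPM over the samples and the flanking genes PHACTR2 and SF3B5 from 68.7 to 107 CPM and from 92.4 to 138 CPM, and none of the 3 passed the test.

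GRB10 encodes an adaptor protein that restrains signalling from the insulin and insulin-like growth factor receptors. Its active allele differs between tissues and isoforms, and it lies on the minus strand at chr7:50657760-50861159 (hg19). GRB10 had 69.5 and 71.5 CPM in the parental samples. E3 and C10 had 66.1 and 74.5 CPM, and the DIP2C+/- clones 62.2 CPM in F6-A7, 79.9 CPM in H9-A4, 66.1 CPM in A9-A12, 56.6 CPM in G1-A5 and 79.2 CPM in A6-C9. Clones lay on both sides of the parental samples, 3 above and 4 below.

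The log2 change of GRB10 for all clones was -0.03 (SE 0.15, edgeR adjusted p = 0.96), with a 95% confidence interval of -0.36 to 0.31. Without H9-A4 it was -0.06, with an interval of -0.38 to 0.25. Of its neighbours, the actin-nucleating gene COBL ranged from 33.7 to 63.3 CPM, and DDC, which encodes the enzyme that makes dopamine and serotonin, from 0.157 to 0.708 CPM.

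**Figure D2:**
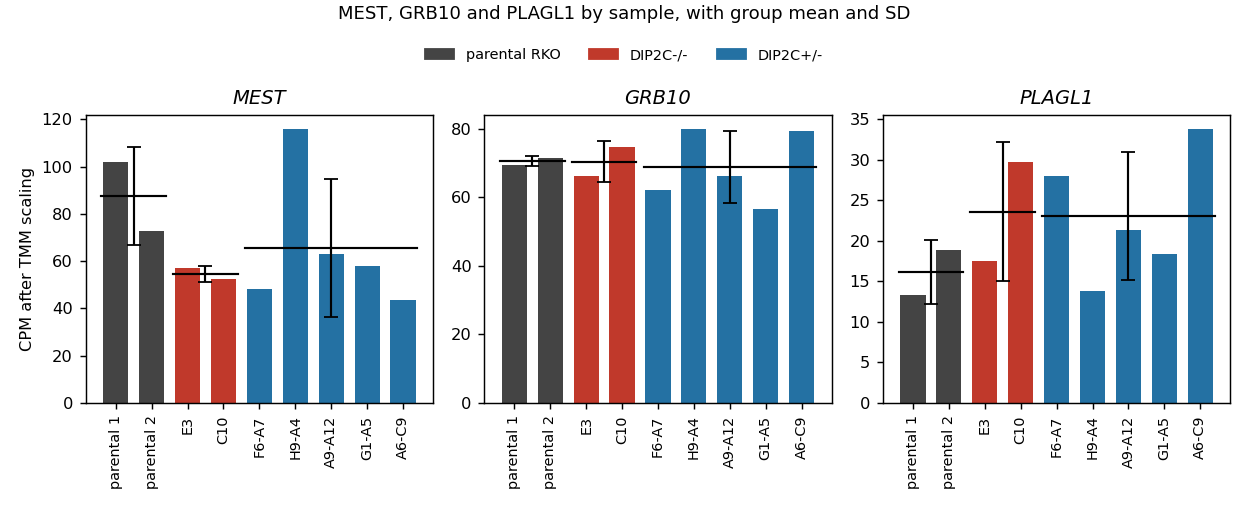
CPM after TMM scaling (vertical axis, from 0) of MEST, GRB10 and PLAGL1 in each of the 9 samples, coloured by genotype, with horizontal lines for group means and error bars for the SD (n = 2, 2 and 5). MEST is below both parental samples in every clone but H9-A4, GRB10 clones lie on both sides of the parental samples, and PLAGL1 clones overlap them.

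H19 and IGF2 share a control region on chromosome 11 at which the insulator protein CTCF binds the unmethylated maternal copy, so that the noncoding RNA H19 comes from the maternal chromosome and the growth factor gene IGF2 from the paternal one. H19 lies at chr11:2016396-2025782 and IGF2 at chr11:2150342-2179621, both on the minus strand (hg19). H19 stood at 1.98 and 1.72 CPM in the parental samples, 2.58 and 1.81 CPM in E3 and C10, and 2.62, 0.912, 0.64, 1.84 and 1.92 CPM in F6-A7, A9-A12, G1-A5, A6-C9 and H9-A4. The lowest values were those of A9-A12 and G1-A5, and 2 clones were above both parental samples, 2 below and 3 between.

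IGF2 was close to the floor. It had 0.66 and 0.104 CPM in the parental samples, 1.09 and 0.518 CPM in E3 and C10, and 0.974, 0.268, 0, 0.102 and 0.509 CPM in F6-A7, A9-A12, G1-A5, A6-C9 and H9-A4. G1-A5 had no count of IGF2, which allows a level of up to 0.14 CPM. Values of 3 of the 9 samples, parental 2 among them, were below 3 counts, and the clones surrounded the parental samples. Reads of the readthrough gene INS-IGF2 and of the antisense gene IGF2-AS share sequence with IGF2, so its counts are uncertain in addition.

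Neither gene passed the test. For all clones the log2 change was -0.09 for H19 (SE 0.51, edgeR adjusted p = 0.957) and 0.25 for IGF2 (SE 1.06, adjusted p = 0.945). The interval of IGF2, from -2.09 to 2.6, spans 4-fold in both directions, so a change of that size in either direction is not excluded by these samples. Without H9-A4 the changes were -0.12 for H19 and 0.2 for IGF2. MRPL23, a mitochondrial ribosomal protein gene beside H19, ranged from 51.5 to 69.6 CPM and did not pass the test, while the tyrosine hydroxylase gene TH, the insulin gene INS and IGF2-AS were too low to be tested.

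MEG3 is a noncoding RNA from the maternal chromosome of the cluster that also holds the paternal genes DLK1 and RTL1, at chr14:101245747-101327368 on the plus strand (hg19). It stood at 0.715 and 0.887 CPM in the parental samples and 1.48 and 0.673 CPM in E3 and C10. The DIP2C+/- clones F6-A7, A9-A12, G1-A5, A6-C9 and H9-A4 had 1.46, 0.965, 0.788, 0.714 and 1.3 CPM. Above both parental samples were 4 clones, and 2 were below both. The all-clone log2 change was 0.39 (SE 0.48, edgeR adjusted p = 0.779), and 0.33 without H9-A4. DLK1, which encodes a Notch-family membrane protein, was at 0 to 0.193 CPM, and RTL1, MEG8, MEG9 and DIO3 also failed the filter.

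NNAT encodes neuronatin, a small membrane protein of the endoplasmic reticulum, from the paternal chromosome. It lies on the plus strand at chr20:36149608-36152092 (hg19), inside an intron of BLCAP. NNAT stood at 1.71 and 1.46 CPM in the parental samples and at 1.03 and 2.17 CPM in E3 and C10. In F6-A7, A9-A12, G1-A5, A6-C9 and H9-A4 it had 0.487, 0.483, 1.62, 0.765 and 1.3 CPM. The DIP2C-/- clones lay on either side of the parental samples, and 4 of the 5 DIP2C+/- clones were below both. The log2 change for DIP2C+/- was -0.76 (SE 0.55, edgeR adjusted p = 0.622) and for DIP2C-/- 0.02 (SE 0.67, adjusted p = 0.99). Without H9-A4 they were -0.90 and 0.03, with adjusted p-values of 0.422 and 0.988. BLCAP, an apoptosis-linked gene, ranged from 27.8 to 53.1 CPM and CTNNBL1, a splicing factor gene, from 55.1 to 81.7 CPM, and neither passed the test.

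PEG3, PEG10 and SNRPN, all transcribed from the paternal chromosome, were too low to be tested. PEG3, a zinc finger gene at chr19:57321445-57352096 on the minus strand (hg19), had 0.495 and 0.313 CPM in parental cells, 0.708 and 0.259 CPM in E3 and C10, and 0.197 to 0.509 CPM in the DIP2C+/- clones. PEG10, a gene derived from a retrotransposon at chr7:94285637-94299007 on the plus strand, had 0.165 and 0.417 CPM in parental cells, 0.322 and 0.311 CPM in E3 and C10, and 0 to 0.679 CPM in the DIP2C+/- clones, with no count in A6-C9. SNRPN, which encodes a spliceosome protein, lies at chr15:25068784-25223870 on the plus strand.

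SNRPN had 0.275 and 0.104 CPM in parental cells, 0.708 and 0.207 CPM in E3 and C10, and 0.0492 to 0.17 CPM in the DIP2C+/- clones. Only 4 of the 9 samples were above 3 counts for it, against 7 for PEG10 and 9 for PEG3. In these 3 genes the values of the clones spread over both sides of the parental samples, and no fold change is given at such levels. SNRPN shares a transcript with SNURF, and PEG3 shares first exons with ZIM2, so the assignment of their reads is uncertain. ZIM2 reached 0.852 to 4.56 CPM and USP29 1.58 to 4.02 CPM, while UBE3A, a ubiquitin ligase gene of the same cluster as SNRPN, was at 130 to 184 CPM. Beside PEG10, the maternally expressed PPP1R9A was at 49 to 75.3 CPM, and CASD1 and PON2 at 10.8 to 22.2 CPM and 61.1 to 85.4 CPM. ZNF264 near PEG3 was at 24.3 to 40.8 CPM, and NPAP1 and ATP10A near SNRPN were at 0.255 to 1.29 CPM and 0.295 to 0.708 CPM.

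With all 9 samples, 0 of the 7 tested members passed the adjusted test in each of the 4 comparisons, where the background was 0.00644% of 15532 genes for DIP2C-/- against parental RKO, 0.0966% for DIP2C+/-, 0.18% for all clones and 0% for DIP2C+/- against DIP2C-/-. At these shares, 0 of 7 is not a result about the members. At an unadjusted p under 0.05, edgeR called 0 of the 7 members for all clones, against 13.4% of all genes tested. The adjusted test of DESeq2 called 0 members for all clones, where 157 genes were higher and 147 lower of 15532. At so low a share, 0 of 7 is again not a result about the members. Without H9-A4 the shares of all genes rose to 4.76% for DIP2C-/- and remained 0% between the genotypes, and no member was called in either of these comparisons. MEST was called for DIP2C+/- and for all clones. The comparisons with parental RKO share both parental samples.

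The members moved in both directions. The median log2 change of the 7 tested members was -0.03 for all clones, 0.24 for DIP2C-/- and -0.07 for DIP2C+/-, beside 0.02 over all genes in each of these comparisons. For all clones, 3 members had positive and 4 negative changes. In this comparison the 95% confidence interval of 6 of the 7 members lay within 4-fold in either direction, and IGF2 was the exception. Between the genotypes, DIP2C+/- against DIP2C-/-, the median was -0.04 and the lowest adjusted p of a member 0.906.

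**Figure D3:**
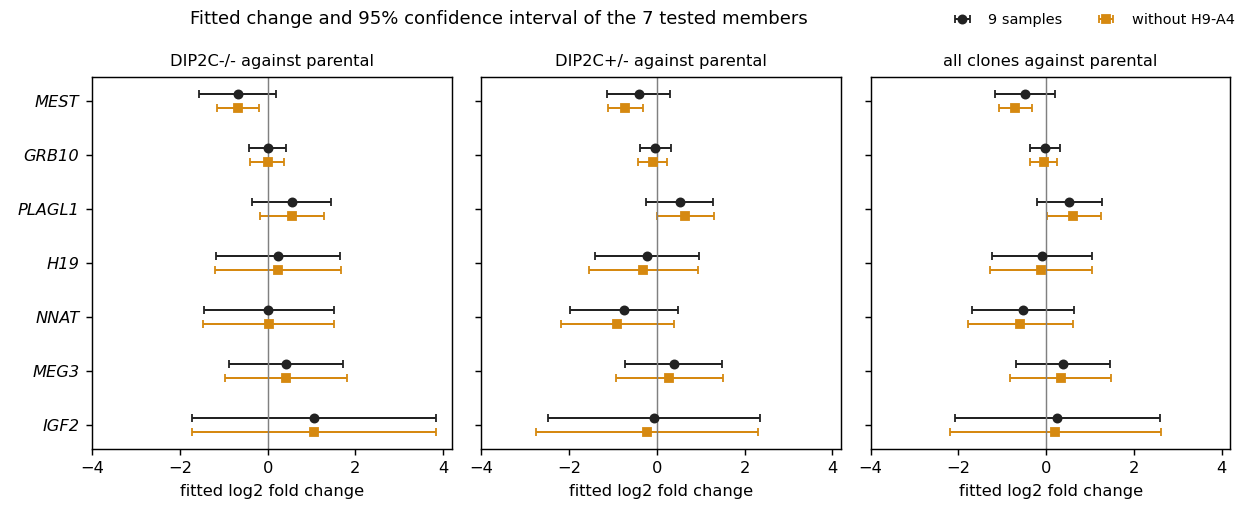
Fitted log2 fold changes (horizontal axis) with 95% confidence intervals of the 7 members that passed the filter, from edgeR with all 9 samples (black circles) and without clone H9-A4 (orange squares), in 1 panel per comparison with parental RKO. The MEST intervals without H9-A4 lie below 0, the GRB10 intervals are the narrowest around 0, and the IGF2 intervals exceed 4-fold on at least 1 side in every panel.

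Each clone was also compared singly with the parental mean. The log2 CPM used there had a prior count of 2, and no test was possible with 1 library per clone. No member was past 4-fold in any clone, where 7.6% of the genes tested were past it in at least 1 clone. The nearest to that limit was IGF2, with differences of -1.89 in G1-A5, 1.57 in E3 and 1.42 in F6-A7, all at a level close to the floor. NNAT had its largest difference, -1.51, in A9-A12, and H19 had -1.38 in G1-A5. MEST differences ran from -0.99 in A6-C9 to 0.43 in H9-A4, and PLAGL1 differences from -0.20 in H9-A4 to 1.09 in A6-C9. No clone moved all members in 1 direction, and the median difference per clone was between -0.32 in G1-A5 and 0.48 in F6-A7.

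Not 1 of the 7 members had all 7 clones on the same side of both parental samples. Over all tested genes, 5.43% had all clones above and 5.54% all clones below. Without H9-A4, MEST had its 6 clones below both parental samples, and the background shares were then 11.5% below and 12.4% above.

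Of the other imprinted genes, 53 were in the files and 32 passed the filter, and with all 9 samples none of these passed the adjusted test in a comparison with parental RKO. By edgeR at an unadjusted p under 0.05 it was 5 of the 32 for all clones, or 15.6%, against 13.4% of all genes. Of 26 paternally expressed genes 15 were too low to test, and of 21 maternally expressed genes 6 were. Their median all-clone log2 changes were -0.07 and 0.00, beside 0.02 over all genes. Without H9-A4, 2 of 31 were called for DIP2C+/- (CDKN1C and KCNQ1OT1) and 1 of 31 for DIP2C-/- and for all clones (CDKN1C), against 7.95%, 4.76% and 8.95% of all genes, so these counts are not a result about imprinted genes as a group.

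CDKN1C, a growth-restraining inhibitor of cyclin-dependent kinases from the maternal chromosome, was the other imprinted gene with the lowest fitted change for all clones and for DIP2C+/-. CDKN1C had 6.55 and 7.31 CPM in parental cells, 1.29 and 1.45 CPM in E3 and C10, and 2.31, 1.18, 1.38, 1.58 and 5.09 CPM in F6-A7, A9-A12, G1-A5, A6-C9 and H9-A4. All 7 clones were below both parental samples, with H9-A4 the highest of them, and 5 clones were past 4-fold. CDKN1C was the 1 gene of the 32 with all 7 clones below, where 5.54% of all genes tested had them so. For all clones its log2 change was -1.80 (SE 0.48, edgeR adjusted p = 0.247), and without H9-A4 it fell by 2.18 (SE 0.33, adjusted p = 0.00223). DESeq2 called it with all 9 samples (adjusted p = 0.0236), and over all alternatives its adjusted p ranged from 0.00223 to 0.815. For DIP2C-/- the lowest fitted change was that of DIRAS3, a growth-restraining GTPase gene named after its values were seen, with 0.129 and 0.0518 CPM in E3 and C10, below the floor, and 0.935 and 0.417 CPM in parental cells (edgeR adjusted p = 0.369).

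KCNQ1OT1, the noncoding RNA from the paternal chromosome that silences CDKN1C in cis, stood at 61.3 and 95.4 CPM in parental cells, 58.8 and 76.1 CPM in E3 and C10, and 44.8, 55.9, 48, 43.8 and 51.4 CPM in F6-A7, A9-A12, G1-A5, A6-C9 and H9-A4. The DIP2C+/- clones were all below both parental samples, and C10 lay between them. The share of all genes with every DIP2C+/- clone below both was not computed. Its log2 change for DIP2C+/- was -0.68 with all samples (SE 0.18, edgeR adjusted p = 0.318), and without H9-A4 it fell by 0.70 (SE 0.19, adjusted p = 0.0448). That call was lost without both H9-A4 and A6-C9 (-0.66, adjusted p = 0.105), and the change was -0.32 without parental 2 and -0.97 without parental 1, neither called. For DIP2C-/- it was -0.22 with and without H9-A4 and did not pass the test. KCNQ1OT1 lies within KCNQ1 on the opposite strand, so its reads and intronic reads of KCNQ1 cannot be told apart without strand. Among the other imprinted genes, all 7 clones were above both parental samples for SLC22A18 and WT1, whose all-clone log2 changes of 1.49 and 1.33 did not pass the test (adjusted p = 0.321 and 0.413). These are 2 of 32 genes, beside 5.43% of all genes tested. WT1 had 0.22 and 0.157 CPM in parental cells, close to the floor, and 0.246 to 0.791 CPM in the clones. SLC22A18 had 1.27 and 0.991 CPM in parental cells and 1.67 to 6.43 CPM in the clones.

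The genes that maintain imprints were mostly present. DNMT1 had 312 and 375 CPM in parental cells and 299 to 483 CPM in the clones, and UHRF1 357 and 401 CPM against 301 to 445 CPM. TRIM28 ranged from 871 to 1145 CPM over all samples, CTCF from 71.9 to 88.3 CPM and DMAP1, a partner of DNMT1, from 21.7 to 38.5 CPM. ZFP57 was at 0.0492 to 0.451 CPM, close to the floor. All-clone log2 changes were 0.28 for DNMT1, -0.03 for UHRF1, 0.09 for TRIM28, -0.12 for CTCF and 0.08 for DMAP1, and none passed the test in either fit.

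The 17 tested genes listed under imprint maintenance also include genes that set or oxidise DNA methylation. In the all-clone comparison 0 of the 17 were called with all 9 samples, where 0.18% of all genes were called. Without H9-A4, 3 were called, all of them lower, where 8.95% of all genes were called. These 3 were DNMT3B, DNMT3A and TET3. The de novo methyltransferase gene DNMT3B had 22.9 and 26.5 CPM in parental cells, 8.34 to 12.7 CPM in 6 clones and 23.6 CPM in H9-A4. DNMT3A had 15.9 and 17.4 CPM in parental cells, 6.2 to 9.8 CPM in the same 6 clones and 21.8 CPM in H9-A4. TET3, which oxidises methylcytosine, had 105 and 117 CPM, 66.5 to 79.4 CPM and 122 CPM, respectively. Without H9-A4 they fell by 1.28, 1.06 and 0.62 on the log2 scale (edgeR adjusted p = 0.00247, 0.0111 and 0.00728), and with it the changes were -1.04, -0.74 and -0.49 (adjusted p = 0.29, 0.453 and 0.342).

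**Figure D4:**
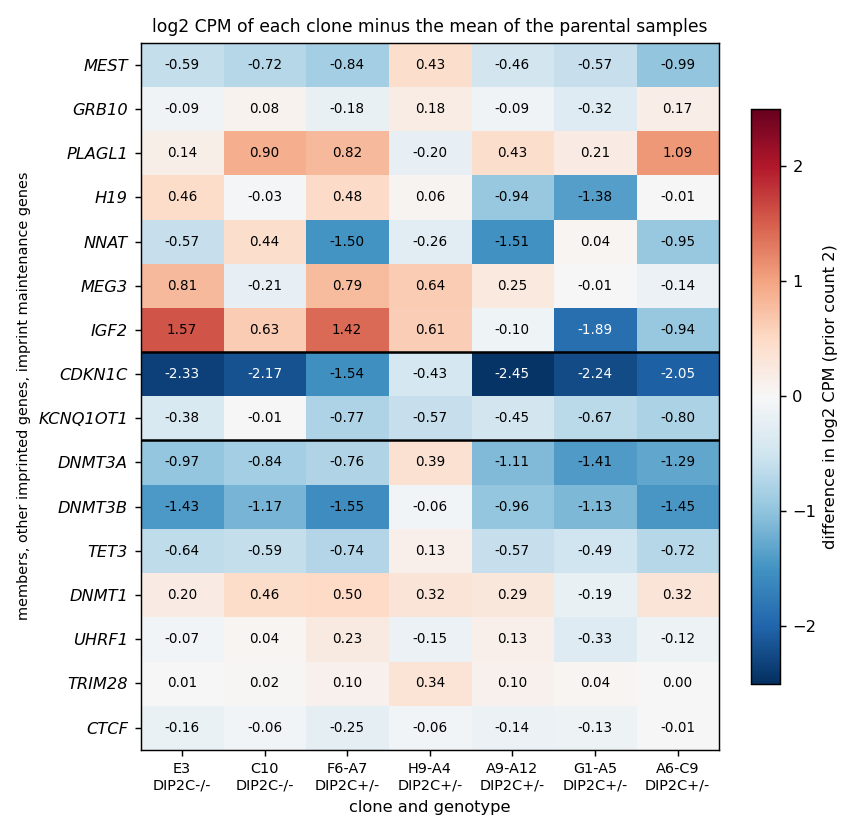
Difference in log2 CPM between each clone (columns, with genotype) and the mean of the parental samples, with red for higher and blue for lower. Rows are the 7 tested members (above the first line), CDKN1C and KCNQ1OT1 (between the lines) and 7 genes listed under imprint maintenance (below). The members show both colours in every column, and CDKN1C, DNMT3A and DNMT3B are at -0.76 or lower in every clone but H9-A4, where they are at -0.43, 0.39 and -0.06.

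Genes with the most similar pattern were sought for members with a mean of at least 1 CPM whose clones ranged over more than 4-fold, which were H19 and NNAT, by Pearson correlation of log2 CPM over the 9 samples among 12686 genes. H19 was most like DNAJA4, SH2D4A and MAP3K15, each with r = 0.95, and NNAT was most like ZDHHC17 (r = 0.97), ZNF700 (r = 0.95) and FYTTD1 (r = 0.94). For MEST, looked up after its values were seen, they were HMGB3 and KANSL3 (r = 0.98 each) and TUBB2B (r = 0.97). For PLAGL1, looked up in the same way, they were WDR37 and FCHSD2 (r = 0.97 each) and GNPTG (r = 0.96). These are the highest of many values over 9 samples that share libraries, clonal origin and depth, and they are given as a description.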

How the data were processed

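RNA sequencing of 9 RKO samples was analysed. Sequencing by the authors was done on an Ion Proton instrument. They aligned reads to hg19 with TopHat2 2.0.4 and quantified genes with Cufflinks (2.2.1 in the submitters' processing notes). Each deposited value is an estimated count of 1 gene symbol, and its derivation from Cufflinks is not given in the sources used here. Of the low values, 98.2% to 98.7% were whole multiples of 1 step per sample (tolerance 0.01 of a step), so each sample appears scaled by a constant of 0.7109 to 1.115 per read.

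Values were rounded to whole numbers and fitted in edgeR 4.0.16 (R 4.3.3) with TMM scaling, filterByExpr (15532 genes, 15390 without H9-A4), 1 coefficient per genotype over all samples, quasi-likelihood tests and Benjamini-Hochberg adjustment at 0.05. The all-clone contrast weighted the 7 clones equally. The members and lists were chosen with earlier results of these data known. All members are named. Other imprinted and maintenance genes are named where called with or without H9-A4 or past 4-fold in 4 clones, and DNMT1, UHRF1, DMAP1, TRIM28, ZFP57, CTCF and filtered neighbours in any case. SLC22A18 and WT1 were named after their values were seen. Gene positions came from GENCODE v44 lifted to GRCh37, which held 86.8% of the symbols. The biological coefficient of variation was 0.298, and 0.242 without H9-A4. For pairs of samples of 1 genotype, chi-square over degrees of freedom was 18.0 to 117.7, so none was counted as a duplicate. Among the DIP2C+/- pairs it was lowest for F6-A7 and A6-C9, at 21.5, and the labels do not say whether these clones are related. For E3 and C10 it was 18.0, and for the 2 parental samples 33.4. Whether the clones are fewer independent units than the p-values assume was not tested. The labels give no batch or date. Alternatives were other size factors, DESeq2 1.42.0, other filters, values divided by the step, only the compared groups, and each sample left out. The scripts were tested on simulated counts. Columns of other samples were not present, and library strand and RNA selection are not given in the sources used here.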

Additional observations from a re-analysis of the deposited data

Results flagged for a closer look

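Among the 5 DIP2C+/- clones, H9-A4 lay far from the others for 6 of the 21 genes examined. The gap between H9-A4 and the nearest clone, divided by the range of the 5 clones, was 0.734 for MEST, 0.71 for CDKN1C, 0.77 for DNMT3A, 0.717 for DNMT3B, 0.766 for TET3 and 0.722 for TRIM28, where the critical value is 0.71. Chance flags about 1 in 20 groups that are not chosen by their values. CDKN1C, DNMT3A, DNMT3B and TET3 were examined after being called without H9-A4, so that share does not apply to them. The 6 values come from the same clone. H9-A4 was the highest DIP2C+/- clone in each of them. MEST was the only member among the 6 genes.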

How the results depend on the processing

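The log2 changes of the 7 tested members were recomputed 468 times over the alternatives, and 433 kept their direction and their side of the threshold. Of the rest, 31 turned direction, all of them in changes that did not pass the test, and 4 passed the threshold, all in MEST. MEST was also called when only the parental and DIP2C-/- samples were fitted (log2 change -0.69, edgeR adjusted p = 0.0403). There 1 member was called, beside 826 genes higher and 981 lower of 14381. Without H9-A4 and A6-C9, 537 genes were higher and 570 lower of 15325 for all clones. MEST was the 1 member called in that comparison (-0.65, edgeR adjusted p = 0.041). Its adjusted p for all clones ranged from 0.0249 to 0.933 over the alternatives, and its change from -0.71 to -0.23, the smallest being without parental 1. Leaving out 1 sample at a time gave 0 to 1 members called for DIP2C+/- and for all clones, with MEST called only without H9-A4.

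The GRB10 change for DIP2C-/- became 0.00 with library size only and 0.01 with at least 10 counts in every sample. The MEG3 change between the genotypes became 0.00 with no filter, and the IGF2 change for DIP2C+/- became 0.08 without H9-A4 and A6-C9. Leaving out 1 sample at a time gave ranges that crossed 0 for IGF2 (-0.86 to 1.72 for DIP2C+/-, -0.54 to 2.04 for all clones), H19 (-0.02 to 0.44 for DIP2C-/-, -0.24 to 0.07 for all clones), MEG3 (-0.23 to 0.84 for DIP2C-/-) and NNAT (-0.66 to 0.47 for DIP2C-/-). The GRB10 ranges were -0.13 to 0.10 for DIP2C-/-, -0.09 to 0.03 for DIP2C+/- and -0.06 to 0.02 for all clones. Between the genotypes the ranges were -0.46 to 0.62 for MEG3, -0.04 to 0.38 for MEST, -0.12 to 0.11 for GRB10 and -0.37 to 0.44 for PLAGL1. The cause was not tested.

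With a prior count of 0.5, 1 member, IGF2, was past 4-fold in a clone, and leaving out parental 1 or parental 2 also gave 1 (range 1 to 1). Members with all clones on 1 side of the parental samples numbered 0 to 1, with PLAGL1 the one without parental 2 and MEST the one without H9-A4. No paired analysis was possible because the labels tie no clone to a parental sample or to a clone of the other genotype, and the replicate numbers of the clones only name them.

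Counts over all genes moved with the clone and the tool. For all clones against parental RKO, 1 gene was higher and 27 lower with all samples, 690 and 688 without H9-A4, 537 and 570 without H9-A4 and A6-C9, 157 and 147 with DESeq2, 0 and 11 with at least 10 counts in every sample, and 0 and 1 without parental 1. Leaving out any other single sample gave 0 to 1 genes higher and 2 to 26 lower in this comparison. For DIP2C-/- the counts were 0 and 1, against 357 and 376 without H9-A4, 105 and 190 with DESeq2 and 826 and 981 when only the compared groups were fitted. For DIP2C+/- they were 0 and 15, against 673 and 551 without H9-A4, 98 and 93 with DESeq2 and 0 and 8 when only the compared groups were fitted. Low members are limited by depth, since 3 counts are 0.14 to 0.203 CPM.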
